A study of Mus musculus with 2 samples.

Results

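The genes described here are 30 genes of sterol synthesis and of its control by sterol regulatory element-binding proteins (SREBPs), measured in the mouse adrenal gland. The genes were listed by symbol for their known roles, and each symbol was matched to a gene identifier through the gene name in the deposited transcript tables. All 30 were found, of 55536 annotated genes in the gene tables. Adrenal glands came from males, aged 8 to 10 months, of the cross 5xFAD X Cast, and each library was made from 300 ng of total RNA with ERCC spike-in RNA added. 5xFAD mice carry human transgenes under the neuronal Thy1 promoter and model amyloid deposition, CAST mice are inbred from wild-caught ancestors, and the labels do not say whether each animal carried the transgenes. The series held 2 libraries of this 1 group, biological replicates 1 and 2, with no treatment, no other genotype and no other tissue. Each library has its own biosample entry and both name 1 donor entry, so the spread between them may be smaller than that between animals.

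Cholesterol is built from acetyl-CoA in the cytosol and endoplasmic reticulum, by way of mevalonate, the isoprenoid units, farnesyl diphosphate, squalene and lanosterol. SREBPs are membrane-bound transcription factors that the escort protein SCAP carries to the Golgi when membrane sterol is low, where the site-1 and site-2 proteases release the active part, and the INSIG proteins hold SCAP back when sterol is high. The adrenal cortex turns cholesterol into steroid hormones, and rodent adrenal cells take much of that cholesterol from lipoproteins as well as making it. The 30 genes do not cover every step of the pathway.

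SREBPs act on promoters together with the factors NF-Y and Sp1, so the bases before the start of leading members are shown first. RefSeq windows of the GRCm38.p6 build covered 27 of the 30 members, all but Sqle, Fdps and Fdft1. Each sequence runs 5′ to 3′ on the strand of the gene. It starts 250 bases before the RefSeq start and stops where the first exon of a GENCODE protein-coding transcript begins, or at the RefSeq start itself. Capitals mark GGGCGG (a core Sp1 motif), CCAAT (the NF-Y motif) or TCACNCCAC (a short form of the sterol response element), on either strand, so that CCGCCC and ATTGG are the same motifs on the other strand. The Hmgcs1 sequence is chr13:119690101-119690350 (+), that of Insig1 is chr5:28071162-28071362 (+), that of Cyp51 is chr5:4104747-4104947 (-) and that of Dhcr7 is chr7:143829964-143830076 (+), from the RefSeq window nearest to the start of its leading transcript. That start lay 588 bases from the RefSeq start for Dhcr7, 113 for Hmgcs1 and 49 for Insig1 and for Cyp51. For Hmgcs1 the first 40 bases from the RefSeq start were not found in any GENCODE transcript of the gene.
Hmgcs1: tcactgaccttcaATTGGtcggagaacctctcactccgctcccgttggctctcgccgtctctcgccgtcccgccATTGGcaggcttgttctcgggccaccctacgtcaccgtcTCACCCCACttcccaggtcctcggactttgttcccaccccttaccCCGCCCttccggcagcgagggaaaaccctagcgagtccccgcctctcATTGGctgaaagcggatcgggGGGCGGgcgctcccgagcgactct
Insig1: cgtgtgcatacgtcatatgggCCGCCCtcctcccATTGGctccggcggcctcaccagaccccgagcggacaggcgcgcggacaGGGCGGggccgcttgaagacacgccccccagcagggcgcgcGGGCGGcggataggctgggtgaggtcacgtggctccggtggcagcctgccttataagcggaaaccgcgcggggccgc
Cyp51: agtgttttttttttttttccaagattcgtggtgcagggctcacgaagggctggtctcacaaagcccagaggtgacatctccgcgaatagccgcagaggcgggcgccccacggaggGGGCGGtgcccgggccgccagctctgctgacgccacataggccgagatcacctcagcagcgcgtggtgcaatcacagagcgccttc
Dhcr7: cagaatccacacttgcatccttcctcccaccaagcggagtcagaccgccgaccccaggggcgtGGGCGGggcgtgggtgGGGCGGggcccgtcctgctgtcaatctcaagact

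In the 250 bases before the start, Hmgcs1 was the 1 member of 27 with TCACNCCAC, at bases -137 to -129, which 1.22% of 27025 genes with a window held. No member held the longer, classical form of the sterol response element in this window, and 0.08% of all genes did. CCAAT was found in 21 of the 27 members (77.8%), beside 37.49% of all genes and 40.36% of 9669 detected protein-coding genes with a window. GGGCGG was found in 23 members (85.2%), beside 35.36% of all genes and 65.14% of the detected coding genes. Member windows were also richer in G and C, with a median of 62.4% over 35 windows against 52.4% over all windows. Hmgcs1 and Msmo1 held 3 CCAAT motifs each and Dhcr7 held 2. Every CCAAT of Msmo1 and of Dhcr7 lay past the base where an exon of a coding transcript begins, and is not printed. Insig1 and Dhcr7 held 3 GGGCGG motifs each, and 1 of those in Dhcr7, at bases -20 to -15, also lay past that base. The counts of members and of all genes took the whole 250 bases, exons included. A match of letters is a description and not a shown site.

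All 30 members were detected, meaning 1 TPM or more in both libraries, where TPM is transcript abundance corrected for length and for the library's total. Among all annotated genes 25.5% were detected, and among protein-coding genes 56.1%. Levels ran over a range of 72.4-fold, from Pdss1 at 3.64 ± 0.877 TPM to Dhcr7 at 263 ± 49.9 TPM (mean ± SD, n = 2, here and for all TPM values with an error). The median member was at 18.5 TPM in replicate 1 and 24.3 TPM in replicate 2, or 21.4 ± 4.14 TPM, where the median detected protein-coding gene was at 12.3 and 12.4 TPM. Only 6 members reached a mean of 50 TPM and 6 were under 10 TPM. Gene counts summed to 29204658 in replicate 1 and 26322473 in replicate 2, and expected counts per member ran from 115 to 16203, so the depth differs widely between members.

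Both genes at the entry to the pathway were well expressed. Acat2, the cytosolic thiolase that joins acetyl-CoA units, was at 27.9 TPM in replicate 1 and 29.2 TPM in replicate 2. Hmgcs1 (chr13:119690379-119708260, +), which makes HMG-CoA, was at 80.4 and 88.5 TPM, and was 2.95 ± 0.104 times as high as Acat2 in TPM. The nearby paralog Acat3 had 13.8 and 20.7 counts, beside 1584 and 1482 for Acat2.

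The enzymes from mevalonate to the isoprenoid units were lower. Idi1, the isomerase that makes dimethylallyl diphosphate, led them at 25.7 and 27.8 TPM. Mevalonate kinase, Mvk, was at 14.8 and 15.8 TPM and the decarboxylase gene Mvd at 10.8 and 12.5 TPM. Pmvk, the phosphomevalonate kinase between them, was at 4.97 and 5.97 TPM from 155 and 159 counts. In TPM of the whole gene it was the lowest of all 19 enzymes of the line to cholesterol. Pmvk was below every other member except Pdss1 in both libraries, in replicate 2 only narrowly, with Hsd17b7 at 6.05 TPM. Protein-coding transcripts held 100% of the TPM of Pmvk but 78.6% and 78.4% of that of Hsd17b7. Over coding transcripts alone Hsd17b7 was therefore below Pmvk in both libraries, in replicate 1 narrowly.

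From farnesyl diphosphate to lanosterol, all 4 genes had higher TPM in replicate 2. Fdps, which makes farnesyl diphosphate, was at 68.7 and 85.5 TPM and stood 3.17 ± 0.126 times above Fdft1, the squalene synthase gene, at 22.3 and 26.2 TPM. Sqle, squalene epoxidase, was at 18.4 TPM in replicate 1 and 23.9 TPM in replicate 2. Lss, which closes the ring to lanosterol, was at 26.8 and 38.2 TPM. In TPM of the whole gene, Lss was the highest of the last 3 in both libraries and Sqle the lowest. Protein-coding transcripts held only 36.3% and 31.6% of the TPM of Lss, against 99.0% and 98.1% for Sqle and 81.62% and 81.55% for Fdft1. At these shares the coding level of Lss was the lowest of the 3 in both libraries. The order in whole-gene TPM thus does not hold over coding transcripts.

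The late steps held both the highest member and some of the lowest. Dhcr7, the reductase that makes cholesterol from 7-dehydrocholesterol, was at 228 TPM in replicate 1 and 299 TPM in replicate 2, above 99.0% of detected protein-coding genes. The gene, ENSMUSG00000058454.15, spans chr7:143823145-143848410 (+) in mm10. Its partner step gene Sc5d, which makes 7-dehydrocholesterol, was at 21.5 and 24.7 TPM, so that Dhcr7 was 11.4 ± 1.05 times as high. Msmo1 (chr8:64718139-64733792, -), the C4-methyl sterol oxidase, came next after Dhcr7 at 92.3 and 111 TPM. Thus the 2 leading members were both late enzymes, and they kept these ranks in both libraries.

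Among the other late enzymes, Cyp51 (chr5:4081145-4104746, -), the lanosterol demethylase, was at 17.7 and 27.3 TPM, the widest gap relative to its mean of any member. Ebp, the sterol isomerase, was at 16.2 and 16.6 TPM and Nsdhl, which removes the C4 carboxyl group, at 13.1 and 13.2 TPM, and these differed little. Hsd17b7, the 3-ketosteroid reductase of this pathway, was at 6.05 TPM in both. Sterol C14 reduction can be carried out by the products of Tm7sf2 and Lbr, the second of which is also the lamin B receptor of the nuclear envelope. Tm7sf2 was at 11.7 and 12.6 TPM and Lbr at 7.52 and 9.25 TPM, a ratio of Lbr to Tm7sf2 of 0.687 ± 0.0646.

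**Figure D1:**
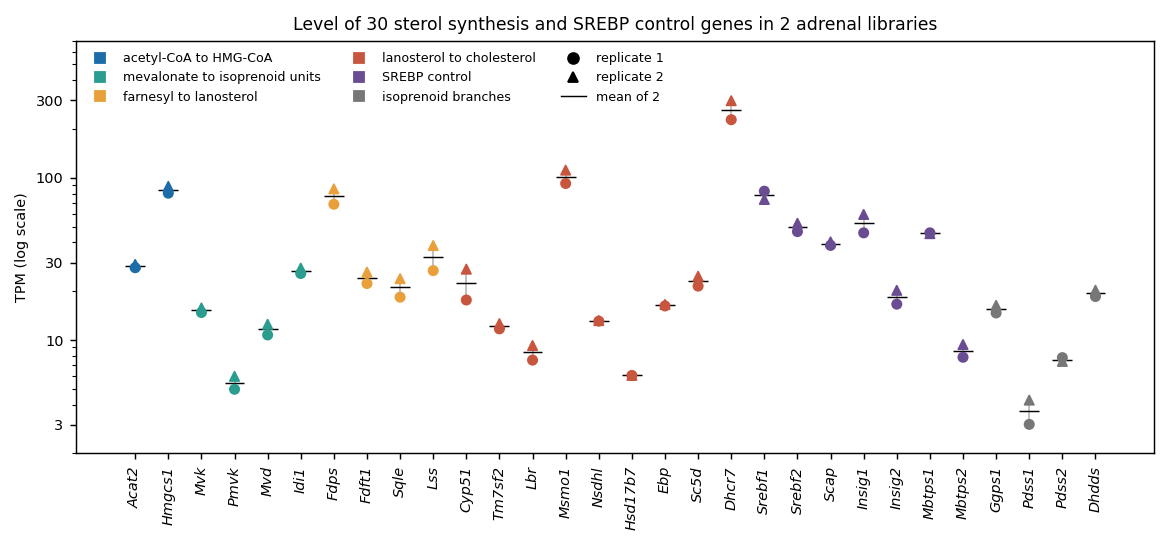
TPM of each member in replicate 1 (circles) and replicate 2 (triangles) on a log scale, with the mean of both as a line and colours for the pathway step. Dhcr7 stands highest at 228 and 299 TPM, and Pdss1 lowest at 3.02 and 4.26 TPM.

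The 7 control genes ran from 8.61 to 78.1 TPM by mean, and their median was 45.8 TPM in replicate 1 against 45.3 TPM in replicate 2. Srebf1 (chr11:60199089-60222581, -), whose products act mostly on fatty acid genes, was at 82.7 and 73.5 TPM. Srebf2 (chr15:82147181-82205379, +), whose product acts mostly on cholesterol genes, was at 46.6 and 52.4 TPM, so the ratio of Srebf2 to Srebf1 was 0.563 in replicate 1 and 0.713 in replicate 2. In TPM of the whole gene, Srebf1 was thus above Srebf2 in both libraries. Protein-coding transcripts held 49.9% and 51.9% of that TPM for Srebf1 and 83.0% and 73.3% for Srebf2. At these shares the coding levels of Srebf1 and Srebf2 were close and did not keep the same order in both libraries. Scap was at 38.3 and 40.3 TPM.

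Insig1 and Insig2, the retention factors, differed in level. Insig1 (chr5:28071363-28078662, +) was at 45.8 and 59.4 TPM and Insig2 at 16.6 and 20.2 TPM, a ratio of 2.84 ± 0.130. Of the proteases, Mbtps1 (site 1) was at 45.8 and 45.3 TPM and the X-linked Mbtps2 (site 2) at 7.83 and 9.38 TPM. Mbtps1 was 5.34 ± 0.724 times as high as Mbtps2, and no control gene was lower than Mbtps2 in either library.

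The 4 branch genes lead from farnesyl diphosphate and its precursors to other products. Dhdds, a subunit of the enzyme that makes the dolichol chain, was at 18.5 and 20.3 TPM, and Ggps1, which makes geranylgeranyl diphosphate, at 14.7 and 16.4 TPM. Fdft1, which commits farnesyl diphosphate to sterol, was 1.56 ± 0.0599 times as high as Ggps1 and 1.25 ± 0.0642 times as high as Dhdds. Pdss1 and Pdss2 encode the subunits of the enzyme that makes the side chain of coenzyme Q. Pdss2 was at 7.79 and 7.38 TPM and Pdss1 at 3.02 and 4.26 TPM.

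In the order of mean TPM, 14 of the 29 neighbouring pairs had ranges that did not overlap, and 20 kept their order in both libraries. In the gene tables Srebf1 stood between Hmgcs1 and Fdps at 78.1 ± 6.49 TPM and changed places with each of them between the libraries. Sc5d, Cyp51 and Sqle, with means of 23.1, 22.5 and 21.1 TPM, could not be ordered beyond their spread. The SD was 9.08% of the mean for the median member and 30.5% for Cyp51, the widest.

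The libraries were next set against each other. Both libraries belong to the same group, so the ratios of replicate 2 to replicate 1 are described without p-values. They are log2 ratios of expected counts scaled by the trimmed mean of M-values (TMM). Each error is a standard error from counting only, which is too small where reads are not independent molecules. Of the 19 enzymes of the line to cholesterol, 16 were higher in replicate 2, with a median of 0.18. In all, 23 of 30 members were above 0, where 48.7% of 16383 genes were (mean count 20 or more), and 49.2% of 12596 genes (mean count 100 or more), limits that all 30 members passed. The median was 0.12 for the members and -0.006 over the 16383 genes.

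At least 1.2-fold higher in replicate 2 were 8 members, beside 11.1% of genes at the lower count limit and 6.82% at the higher. They were Pdss1 at 0.51 ± 0.18, Dhcr7 at 0.39 ± 0.02, Cyp51 at 0.39 ± 0.05, Sqle at 0.36 ± 0.05, Insig1 at 0.35 ± 0.03, Fdps at 0.33 ± 0.04, Lss at 0.31 ± 0.04 and Sc5d at 0.27 ± 0.05. No member was 1.2-fold lower in replicate 2, where 13.5% and 8.25% of genes were at these limits. None reached 1.5-fold in either direction. Scaled to the spike-in RNA instead, a shift of -0.097 that puts the median of all genes at -0.10, the median of the members was 0.021. With this scaling 4 members passed 1.2-fold and 17 were above 0, with Acat2, Idi1, Mvk, Lbr, Mbtps2 and Srebf2 then below it. The shares of all genes past these limits were not computed with this scaling.

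By step, the median ratio was 0.32 over the 4 genes from farnesyl diphosphate to lanosterol, all above 0 and 3 past 1.2-fold. Over the 9 late enzymes it was 0.16, with 6 above 0 and 3 past 1.2-fold, and the 3 below 0 were Nsdhl at -0.01 ± 0.08, Hsd17b7 at -0.05 ± 0.09 and Ebp at -0.05 ± 0.10. From mevalonate to the isoprenoid units the median was 0.14, with 4 of 4 above 0 and none past 1.2-fold, and Pmvk, at 0.18 ± 0.16, had few counts. Acat2 was at 0.05 ± 0.05 and Hmgcs1 at 0.11 ± 0.02. Whether the steps differ from each other was not tested.

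Among the control genes the median was 0.09, with 5 of 7 above 0. Insig1, a textbook SREBP target as well as a regulator, was the 1 control gene past 1.2-fold. Scap was at 0.16 ± 0.03, Insig2 at 0.13 ± 0.07, Mbtps2 at 0.09 ± 0.07 and Srebf2 at 0.08 ± 0.03. Mbtps1 was at -0.05 ± 0.03. Srebf1, at -0.11 ± 0.03, had the lowest ratio of the 7 control genes and lay more than 2 counting errors below 0. The branch genes had a median of 0.03, where Dhdds was at 0.10 ± 0.06, Ggps1 at -0.03 ± 0.06 and Pdss2 at -0.04 ± 0.10, and only Pdss1 passed 1.2-fold, on 115 and 148 counts.

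**Figure D2:**
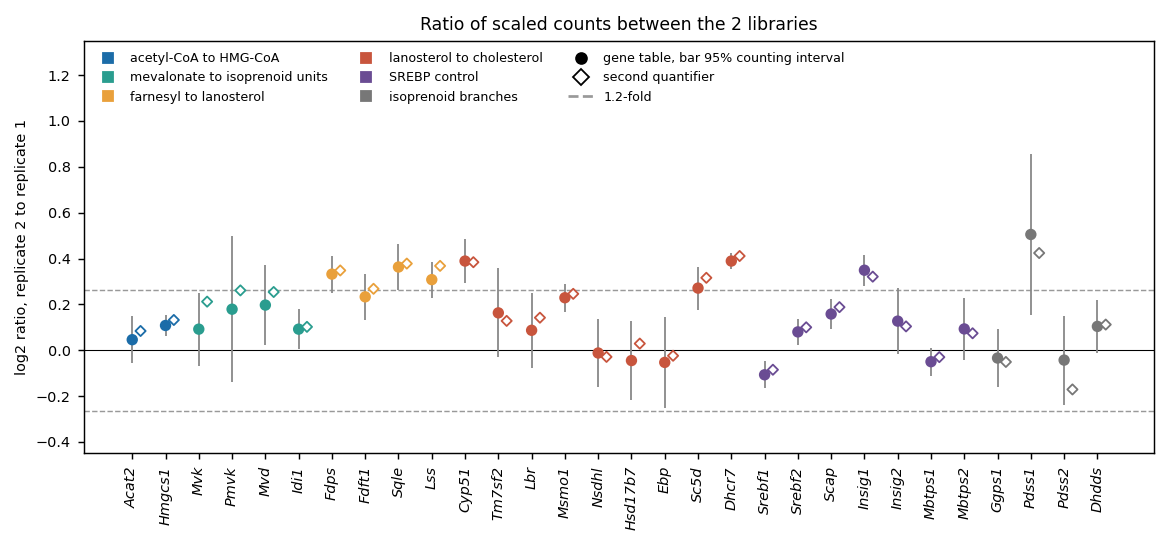
Log2 ratio of replicate 2 to replicate 1 for each member, from scaled gene counts (filled circles, bars for 95% counting intervals) and from the second quantifier (open diamonds), with 1.2-fold as dashed lines. The 4 genes from Fdps to Lss lie between 0.23 and 0.36, and Srebf1 lies at -0.11.

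Ratios in TPM differed from those in counts by more than the counting interval for 9 of 30 members, being higher in TPM for Cyp51, Lss, Lbr, Ggps1, Mbtps2, Insig2 and Srebf2 and lower for Srebf1 and Scap. Cyp51 was at 0.63 in TPM against 0.39 in counts, and its length averaged over transcripts was 3355 bases in replicate 1 and 2892 in replicate 2. Lss was at 0.51 in TPM against 0.31 in counts, with lengths of 3237 and 2861 bases, and Lbr at 0.29 against 0.09, with lengths of 2949 and 2598 bases. Ggps1 was at 0.15 in TPM against -0.03 in counts, with lengths of 2589 and 2315 bases. In the second quantifier, a deposited table made directly from the reads, the count ratios were 0.38 for Cyp51 and 0.37 for Lss. TPM was higher in replicate 2 for 26 of 30 members, and the share of all genes for which it was higher was not computed. The median log2 ratio in TPM was 0.185 for the members and 0.012 over the 16383 genes.

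Total RNA holds unspliced RNA, and the share of each gene's TPM given to transcripts with a retained intron varied between members. The 30 genes have 206 annotated transcripts, from 2 to 15 per gene, and protein-coding transcripts took a median of 86.3% of a gene's TPM in replicate 1 and 85.6% in replicate 2. In 13 members the coding share was 90% or more in both libraries, among them Acat2, Pmvk and Sc5d at 100%. Neither the medians nor this count was computed over all genes, so whether the members are unusual here is not known. Of the members, Lss was lowest, with 36.3% and 31.6% coding and 45.1% and 40.7% in retained-intron transcripts. Ebp had 42.7% and 33.7% in the retained-intron class and Mbtps1 34.2% and 37.5%. Srebf1 had 49.9% and 51.9% coding, with the rest in short noncoding transcripts. The second quantifier gave Lss a coding share of 34.7% and 30.2%, and Srebf1 60.1% and 46.7%.

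**Figure D3:**
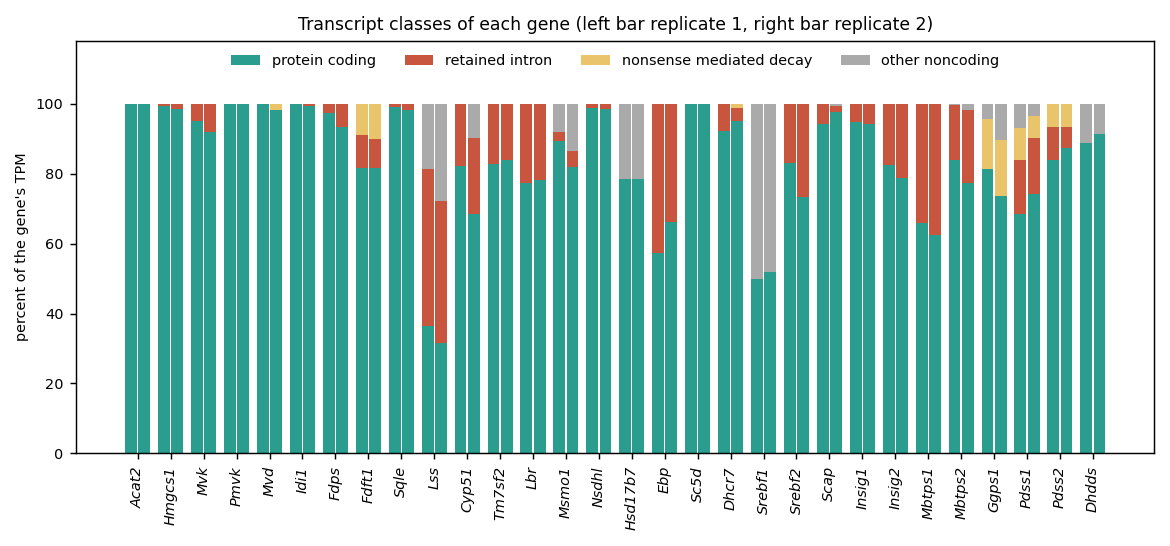
Percent of each gene's TPM by annotated class of transcript, with replicate 1 as the left and replicate 2 as the right bar of each pair. Lss has the smallest coding share, at 36.3% and 31.6%, and Acat2, Pmvk and Sc5d are wholly coding.

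A leading transcript held 50% or more of the TPM in both libraries in 23 members, and the leading transcript was the same in both libraries in 27, all but Lss, Sc5d and Ebp. The shares of all genes for which this holds were not computed. In Dhcr7 a coding transcript of 2556 bases held 71.2% and 78.0%, and in Insig1 one of 2697 bases held 94.7% and 94.2%. In Cyp51 the coding transcript of 3931 bases held 82.2% in replicate 1 and 68.3% in replicate 2, and the second quantifier gave it 84.1% and 75.7%. Srebf2 likewise had more in retained-intron transcripts in replicate 2, at 26.7% against 17.0%, and 24.6% against 12.2% in the second quantifier. Hmgcs1 was split between a pair of coding transcripts of 3464 and 3245 bases. The longer took 78.2% and 81.0% in the main tables, and 13.1% and 16.1% in the second quantifier, where the shorter took 76.8% and 72.2%, so which of them leads is uncertain. Sc5d was divided between coding transcripts of 1677 and 4787 bases, at 50.8% and 42.2% in replicate 1 and 43.0% and 48.6% in replicate 2.

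Other genes tied to the pathway were taken from 3 further lists. Of 15 neighbours in isoprenoid metabolism all were detected, led by Fnta, the shared subunit of the protein prenyltransferases, at 34.7 ± 1.03 TPM, then Acat1 at 26.3 ± 2.99, Rabggtb at 24.7 ± 0.948 and Coq2, which attaches the coenzyme Q side chain, at 24.3 ± 1.44 TPM. Their median log2 ratio was 0.05, with 9 of 15 above 0 and 2 past 1.2-fold. Of 16 genes of sterol-regulated degradation and SREBP traffic all were detected, among them Pgrmc1 at 137 ± 8.42 TPM, Aup1 at 70.5 ± 4.53 and the ubiquitin ligase gene March6, whose product degrades squalene epoxidase, at 49.1 ± 2.23 TPM. Their median was 0.09, with 13 of 16 above 0 and 1 past 1.2-fold.

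The third list held 17 other SREBP targets and carriers, mostly of fatty acid synthesis, and its median level was 33.0 TPM in the first library and 36.8 TPM in the second. Fads2 and Fads1, the desaturases of polyunsaturated fatty acids, were at 621 ± 134 and 567 ± 97.0 TPM, Me1, an NADPH-making malic enzyme, at 582 ± 72.3 TPM and Acly, which supplies cytosolic acetyl-CoA, at 419 ± 40.9 TPM. They did not move one way. Fads2 was at 0.43 ± 0.01 and Fads1 at 0.38 ± 0.01, Acly at 0.16 ± 0.01 and Me1 at -0.27 ± 0.01. Pnpla3, a lipid droplet protein gene, was at -0.997 ± 0.169, from 234 and 106 counts. The median of this list was 0.03, with 9 of 17 above 0, 3 past 1.2-fold higher and 3 past 1.2-fold lower.

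Cell markers moved between the libraries too. In bulk tissue fewer cells of a type and less RNA per cell cannot be told apart. All 8 white adipocyte markers were lower in replicate 2, with a median of -0.77, and their summed level was 757 TPM in replicate 1 and 468 TPM in replicate 2. All 4 macrophage markers were lower, with a median of -0.62 and sums of 198 and 123 TPM. The 7 chromaffin markers were all higher, with a median of 0.18 and sums of 2005 and 2318 TPM, and 6 of 8 cortex markers were higher, with a median of 0.07 and sums of 17962 and 19003 TPM. Every cortex marker was abundant, from Mc2r at 87.1 ± 3.22 TPM to Star at 5704 ± 171 TPM. The 4 endothelial markers had a median of -0.02. None of 3 liver markers was detected and 1 of 4 kidney markers was (Aqp2, at 1.69 and 1.01 TPM, while Umod and Lrp2 had 0 TPM in 1 library each), at sums of 0.92 and 0.64 TPM over 3 genes and 2.21 and 1.34 TPM over 4. The part of these shifts in the ratios of the sterol genes was not tested.

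**Figure D4:**
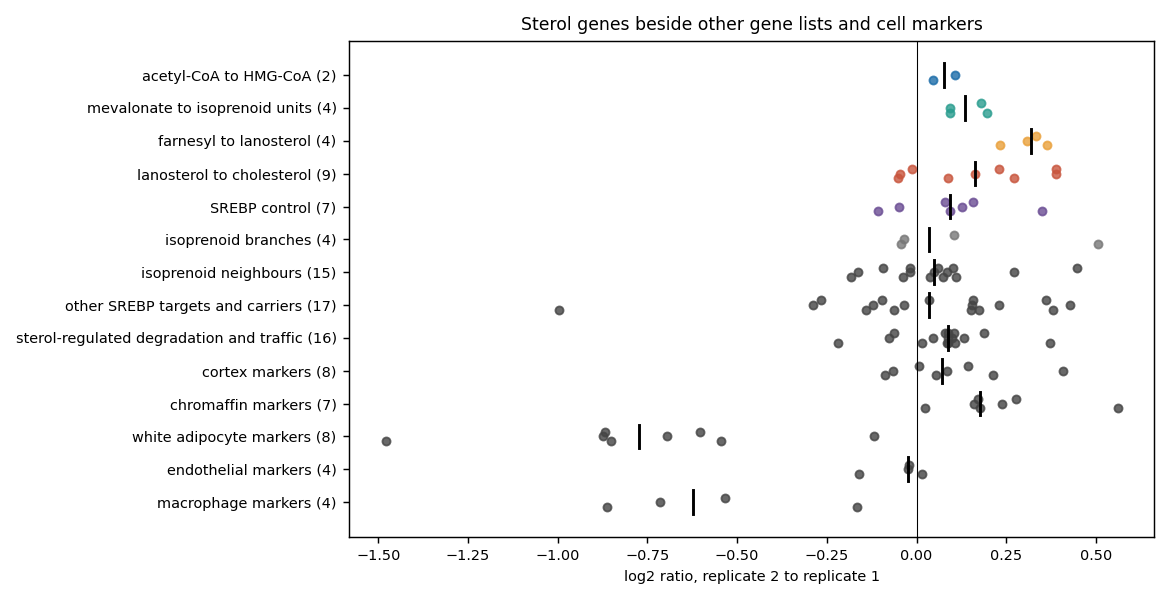
Log2 ratio of replicate 2 to replicate 1 for the members by step (coloured) and for other gene lists and cell markers (grey), 1 point a gene, with the median as a bar and the number of genes in brackets. Lists with fewer than 3 genes at a mean count of 20 or more (liver and kidney) are not drawn. White adipocyte markers have a median of -0.77, and the genes from farnesyl diphosphate to lanosterol have a median of 0.32.

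Some members share their locus with other genes, and whether strand was used in counting is not given in the sources used here. On the opposite strand, Ctsb (19237 and 16826 counts) overlaps Fdft1, Akap9 (5269 and 4994) overlaps Cyp51, Rai1 (3325 and 2850) overlaps Srebf1, Arid4b (1965 and 1981) overlaps Ggps1 and Abi1 (1722 and 1493) overlaps Pdss1. On the same strand, Vps51 (1139 and 994 counts) overlaps Tm7sf2 (417 and 423). Values of these members are uncertain to that extent. Across the members, TPM in the gene table was 0.763 times (Lbr) to 1.23 times (Scap) that in the second quantifier.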

How the data were processed

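Total RNA of 2 adrenal libraries was quantified by the authors on the mm10 build with the GENCODE M21 annotation, per the notes deposited with each library, with aligner and quantifier not given in the sources used here. The authors deposited expected counts, TPM and FPKM per gene, and expected counts, TPM and the percent of its gene for each transcript. The second quantifier is another deposited transcript table, with estimated counts and TPM taken from reads without those alignments. The authors' TPM is relative to all 81881 features.

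Gene counts summed to 29204658 and 26322473 in replicates 1 and 2. Spike-ins and 26248 entries with numeric identifiers stayed out of these totals. Expected counts were rounded, scaled by TMM factors of 0.997 and 1.00 (edgeR 4.0.16, R 4.3.3), and given a prior count of 0.5. DESeq2 1.42.0 size factors were an alternative. Python 3.11.15, pandas 2.3.3, numpy 2.4.6 and matplotlib 3.10.9 were used. The ratio was tested on simulated counts. The members, lists and motifs were chosen with earlier results of these data known. All 30 members are named, and of each further pathway list the 4 highest by TPM and any gene 1.5-fold or more apart between the libraries, except 1 gene that is not reported here. Promoters were picked among members that hold a motif, by the largest ratio and TPM, and Msmo1 was left out because only 36 bases lay outside coding-transcript exons.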

Additional observations from a re-analysis of the deposited data

How the results depend on the processing

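All 30 members stayed detected at 0.5 TPM, in the second quantifier and in each library alone, and 28 at 5 TPM. The median level was 18.5 to 24.3 TPM over single libraries and 63.7 TPM when TPM was rescaled over protein-coding genes outside the mitochondrial genome. The median log2 ratio of 0.12 was 0.021 with spike-in scaling, 0.180 and 0.185 in TPM with a pseudocount of 1 and 0.1, and 0.171 in FPKM, while DESeq2 size factors, total counts, the second quantifier, other count limits and a prior count of 2 moved it within its counting error. Of the 8 members past 1.2-fold higher, 4 passed with spike-in scaling and 0 at 1.5-fold. Single members changed sign, none of them past 1.2-fold, in 6 cases with spike-in scaling (Acat2, Idi1, Lbr, Mbtps2, Mvk and Srebf2), in 3 in TPM (Ebp, Ggps1 and Nsdhl), in 1 in the second quantifier (Hsd17b7) and in none with DESeq2 size factors. In the second quantifier 15 of 30 TPM values moved by more than the SD. Hsd17b7 was then below Pmvk in replicate 1, at 4.93 against 5.36 TPM, and above it in replicate 2, at 5.96 against 5.83 TPM. Srebf1, at 62.88 and 68.78 TPM in the second quantifier, was higher in replicate 2, where in the gene tables it was lower. It was there below Hmgcs1 (79.83 and 86.25 TPM) and Fdps (62.91 and 76.47 TPM) in both libraries. There the level ratios that moved were 13.9 for Dhcr7 to Sc5d, 3.43 for Hmgcs1 to Acat2, 2.29 for Insig1 to Insig2, 0.820 for Lbr to Tm7sf2, 1.27 for Fdft1 to Ggps1, 1.10 for Fdft1 to Dhdds and 3.44 for Fdps to Fdft1, which is higher than in the gene tables for 4 pairs and lower for 3, each on the same side of 1, and the cause was not tested. Over single libraries these ratios ran from 10.6 to 12.1, 2.88 to 3.03, 2.75 to 2.94, 0.642 to 0.733, 1.52 to 1.6, 1.2 to 1.29 and 3.08 to 3.26, and Srebf2 to Srebf1 from 0.563 to 0.713, Mbtps1 to Mbtps2 from 4.83 to 5.85 and Pdss2 to Pdss1 from 1.73 to 2.58. A leading transcript with 50% or more in both libraries was found in 17 members by the second quantifier, against 23. No paired analysis was possible because there is 1 group. With 2 libraries no interval between animals can be given, and the counts of Pdss1 and Pmvk limit their ratios.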

Other observations

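Within the Srebf2 locus, the same-strand entry Gm49502 had 76 counts in replicate 1 and 129 in replicate 2, while the microRNA gene Mir33, which lies in an intron of Srebf2, had 0 counts in both, in libraries that were not made for small RNA. The entry Gm20388, which spans Mvd on the opposite strand, had 311 and 623 counts. Members with a CCAAT motif in the window had a median log2 ratio of 0.11 (21 genes) and those without one of 0.07 (6 genes), and with or without GGGCGG the medians were 0.10 (23 genes) and 0.14 (4 genes). The short noncoding Lss transcript of 352 bases took 18.6% and 27.7% of the TPM of Lss in the main tables and 0% in the second quantifier.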
